A study of Mus musculus with 9 samples.

Results

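Prostaglandin E1 (PGE1) given together with angiotensin II (AngII) was compared with AngII alone in mouse heart tissue. The comparison set the 3 libraries labelled AngII+PGE1 against the 3 labelled AngII, which are 6 of the 9 libraries of the series. It covered every gene at 1 FPKM or more in at least 3 of the 9 libraries, 11902 of the 16951 genes in the deposited table. All mice were C57BL/6. The AngII+PGE1 group received both agents and the AngII group the peptide alone. The 3 remaining libraries, labelled saline, enter the fit and are quoted for some of the genes. The sources used here give no dose, route, duration, age or part of the heart. Whether each library is a different animal is not stated, so a p-value reflects only the scatter among libraries, part of which may be technical. Polyadenylated RNA was sequenced, and FPKM is the number of fragments of a transcript scaled by its length and by the library's total on genes.

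AngII is a pressor peptide that acts in the heart mainly through the AT1 receptor and is widely used to produce hypertrophy and fibrosis in mice. PGE1 is a prostanoid that binds the EP receptors and the prostacyclin receptor. EP2, EP4 and the prostacyclin receptor raise cyclic AMP, whereas EP3 couples mainly to the inhibitory G protein. The adult heart takes most of its energy from the oxidation of fatty acids, and the enzymes of that pathway are known to be lowered in many forms of hypertrophy. The title of the series concerns the EP3 receptor and netrin-1 in this setting.

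AngII+PGE1 1 stood apart from the other AngII+PGE1 libraries. On the first principal component, which carried 62.3% of the variance, it lay at -12.4, AngII+PGE1 2 and 3 at 26.4 and 36.6, and the AngII libraries between -41.2 and -33.4. Saline 2, at -16.3, likewise lay apart from saline 1 and 3. Across the tested genes the mean correlation of AngII+PGE1 1 was 0.9619 with the other AngII+PGE1 libraries and 0.9695 with the AngII libraries. These values describe the libraries only, since genes are not independent replicates. The summed FPKM of 10 markers of working ventricular muscle was 63093 to 84934 in AngII+PGE1 libraries and 61192 to 88559 in AngII libraries. All 7 adipocyte markers were either without a row or under 1 FPKM in these 6 libraries. Red cell markers summed to between 141 and 9748 FPKM in AngII+PGE1 libraries, highest in AngII+PGE1 2, and to between 239 and 2295 FPKM in AngII libraries.

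Of the 11902 genes, 48 passed the threshold, a limma adjusted p under 0.05 (0.403%). Adding PGE1 raised 24 genes (0.202%) and lowered 24 (0.202%). The 24 that rose held enzymes of fatty acid oxidation, the AngII receptor gene Agtr1a, the proenkephalin gene Penk and the endoplasmic reticulum gene Herpud1. The 24 that fell held the myosin light chain gene Myl1, actin-binding and cytoskeletal genes, the interferon-response genes Ifi27l2a and Ifi44, the growth factor Igf1 and the endothelial junction gene Cldn5. The adjusted p-values of the 48 lay between 0.031 and 0.0488, all near the threshold. Within the 11902 genes the AngII+PGE1 libraries lay above all AngII libraries for 1944 genes (16.3%) and below all of them for 2350 (19.7%). The groups did not overlap for 4294 genes in all (36.1%), and for each of the 48. The median difference of all tested genes was -0.08 on the log2 scale. The count of 48 rested on single libraries. It was 0 without AngII+PGE1 2, AngII+PGE1 3, AngII 2 or saline 1, 14 without saline 3, 75 without AngII 3, 2433 without saline 2 and 3201 without AngII+PGE1 1, of which 1096 were higher (9.21%) and 2105 lower (17.7%). With only the 6 libraries in the model, 772 genes passed (6.49%), 373 of them higher (3.13%) and 399 lower (3.35%), and all 48 were among them. A covariate for a library's side of the first component (the side covariate), defined from the same data, left 5 genes (0.042%). Without adjustment 4005 genes had a limma p under 0.05 (33.6%).

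**Figure D1:**
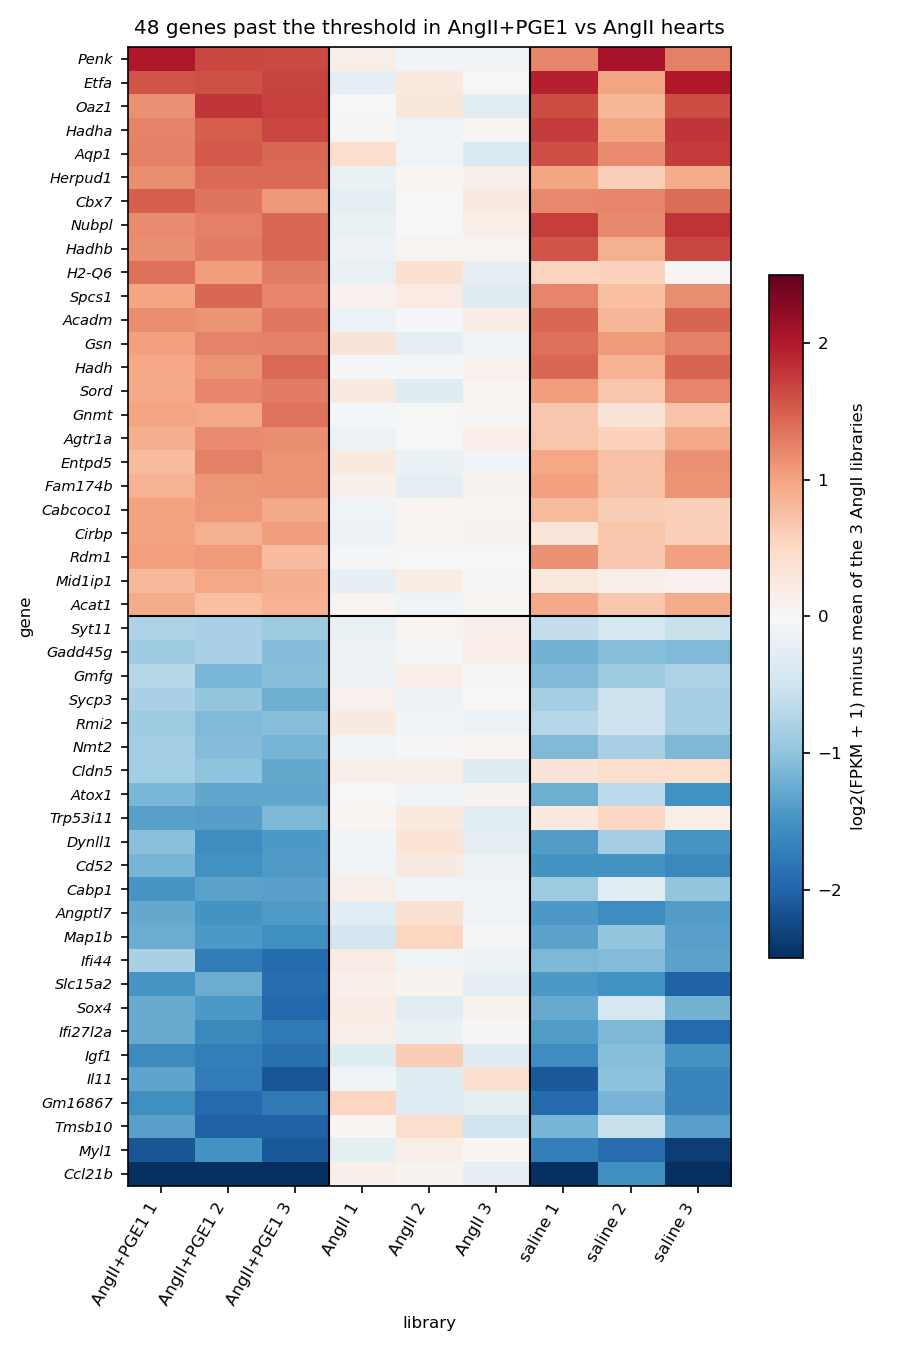
Each row is 1 of the 48 genes past the threshold and each column 1 library, and the colour gives log2(FPKM + 1) minus the mean of the 3 AngII libraries. All AngII+PGE1 libraries lay on the same side of all AngII libraries in every row, and the colours of Ccl21b run past the end of the scale.

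Several genes of fatty acid oxidation rose with PGE1. Of 31 tested members of the pathway 6 rose (0.202% of all tested genes did) and none fell, and the 25 others did not pass. The median difference of the 31 was 0.63, against -0.08 for all tested genes. All 3 AngII+PGE1 libraries lay above all AngII libraries for 20 of the 31 (16.3% of all tested genes), and below them for none (19.7%). In the model with the 6 libraries alone 14 of the 31 passed, all higher (3.13% of all tested genes did so). Relative to the mean of the AngII libraries the list median was 0.52, 0.60 and 0.88 in AngII+PGE1 1, 2 and 3, so AngII+PGE1 1 lay near the others here. Acot13, a mitochondrial thioesterase gene named after its values were seen, had the most negative difference of the list, at -0.72 (limma adjusted p = 0.129).

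Hadha and Hadhb encode the alpha and beta subunits of the mitochondrial trifunctional protein, which carries out the last steps of each round of long-chain oxidation. In the mouse genome they lie head to head, and the whole stretch between their starts was of interest because both genes moved together. In the RefSeq promoter table, build GRCm38.p6, the Hadha start is base 30154980 of chromosome 5 on the minus strand and the Hadhb start is base 30155253 on the plus strand. The 272 bases between them, chr5:30154981-30155252, are printed on the plus strand with the 2 matches to GGGCGG, the core of a GC box, in capitals.
Hadha-Hadhb: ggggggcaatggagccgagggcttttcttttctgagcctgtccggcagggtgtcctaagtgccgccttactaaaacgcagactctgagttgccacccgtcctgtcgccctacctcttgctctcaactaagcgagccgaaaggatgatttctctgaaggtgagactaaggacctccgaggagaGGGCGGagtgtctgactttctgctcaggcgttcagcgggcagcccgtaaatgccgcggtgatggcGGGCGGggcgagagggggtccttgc
A match to GGGCGG on either strand occurred in 64% of the promoter windows of tested genes, so it marks nothing particular to this stretch. Hadha stood at 374, 449 and 505 FPKM in AngII+PGE1 1, 2 and 3, against 160, 149 and 163 FPKM in the AngII libraries. The lowest AngII+PGE1 value was over 2 times the highest AngII value, and the difference was 1.48 on the log2 scale (SE 0.23, limma adjusted p = 0.0399). Hadhb stood at 730, 799 and 884 FPKM in AngII+PGE1 libraries, against 295, 345 and 345 FPKM in AngII libraries. Its groups did not overlap either, with a difference of 1.29 (SE 0.22, limma adjusted p = 0.0467).

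Etfa, a subunit of the flavoprotein that takes electrons from acyl-CoA dehydrogenases, showed the largest difference of the pathway. It was at 234, 236 and 251 FPKM with AngII+PGE1, against 65.7, 92.1 and 77.3 FPKM with AngII. The AngII+PGE1 libraries differed little from one another, and the log2 difference was 1.62 (SE 0.26, limma adjusted p = 0.0435). Acadm, the medium-chain acyl-CoA dehydrogenase, averaged 467 ± 37.2 FPKM in AngII+PGE1 hearts and 203 ± 23.7 FPKM in AngII hearts (SD, n = 3 each), a difference of 1.20. Hadh, the shorter-chain hydroxyacyl-CoA dehydrogenase, averaged 445 ± 70.9 FPKM in AngII+PGE1 hearts and 195 ± 12.2 FPKM in AngII hearts (SD, n = 3 each), a difference of 1.17. Acat1, the mitochondrial acetoacetyl-CoA thiolase, averaged 171 ± 9.89 FPKM in AngII+PGE1 hearts and 94.4 ± 5.98 FPKM in AngII hearts (SD, n = 3 each), a difference of 0.85. These 3 genes also rose by limma, with adjusted p-values of 0.0449 for Acadm and 0.0452 for both Hadh and Acat1. In saline hearts Hadha averaged 462 ± 129 FPKM and Hadhb 879 ± 240 FPKM (SD, n = 3 each), and saline 2 was the lowest saline library for both. Nubpl, an assembly factor of respiratory complex I, also rose. It stood at 6.47, 6.84 and 7.94 FPKM in AngII+PGE1 libraries, against 1.88, 2.32 and 2.71 FPKM in AngII libraries, without overlap (log2 difference 1.29, SE 0.19, limma adjusted p = 0.0395).

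None of the 17 genes of fatty acid uptake and storage and none of the 16 PPAR, PGC-1 and ERR regulators passed, and their medians were 0.16 and 0.11. The fatty acid transporter Cd36 was at 349, 344 and 373 FPKM with AngII+PGE1, against 240, 248 and 239 FPKM with AngII. The groups did not overlap, but the difference of 0.55 missed the threshold (SE 0.14, limma adjusted p = 0.0609). Among the regulators, Perm1, a muscle regulator of oxidative genes, differed by 1.16 and the orphan receptor gene Esrrb by 0.86, both short of the threshold (limma adjusted p = 0.0648 and 0.0596).

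The citric acid cycle list behaved like fatty acid oxidation in its median but held no gene past the threshold. The median difference of its 23 members was 0.66. For 17 of them all AngII+PGE1 libraries lay above all AngII libraries (16.3% of all tested genes), and for none below (19.7%). With the 6 libraries alone 6 of the 23 passed, all higher (3.13% of all tested genes did so). Sdha, the catalytic subunit of succinate dehydrogenase, was at 358, 418 and 464 FPKM with AngII+PGE1, against 138, 159 and 176 FPKM with AngII. The gap between the groups was wide, yet the difference of 1.38 fell short in the model of all libraries (SE 0.28, limma adjusted p = 0.0557). Sdhd, a membrane anchor of the same complex, differed by 1.27 (limma adjusted p = 0.0525) and Pdhb, of pyruvate dehydrogenase, by 0.81 (limma adjusted p = 0.059). Pfkm, the muscle phosphofructokinase of glycolysis, differed by 1.17 (limma adjusted p = 0.053), and none of 26 glycolysis genes passed.

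The respiratory chain lists had medians of the other sign. None of 37 complex I subunits passed, and their median was -0.34. Relative to the AngII mean this median was 0.02 in AngII+PGE1 1, -0.54 in AngII+PGE1 2 and -0.42 in AngII+PGE1 3, so the negative value was in libraries 2 and 3, and with the side covariate it was 0.05. For 3 of the 37 (against 16.3% of all tested genes) all AngII+PGE1 libraries lay above all AngII libraries, and for none below (19.7%). Ndufs1, the largest iron-sulfur subunit, was at 166, 171 and 181 FPKM with AngII+PGE1, against 77.1, 82.3 and 91.3 FPKM with AngII (log2 difference 1.04, SE 0.23, limma adjusted p = 0.0566). Ndufv1, which binds NADH, differed by 0.80. Ndufa1, a short accessory subunit, was at 393, 193 and 168 FPKM with AngII+PGE1, against 586, 370 and 506 FPKM with AngII (log2 difference -1.03, limma adjusted p = 0.108). The 34 genes of complexes III and IV and ATP synthase had a median of -0.32, or 0.16 with the side covariate. Of the 34, 24 had a negative difference, as did 56.8% of all tested genes. For 7 of the 34 all AngII+PGE1 libraries lay above all AngII libraries (16.3% of all tested genes), and for none below (19.7%). Among the 7, Atp5a1, the catalytic-core alpha subunit of ATP synthase, differed by 1.11, Atp5f1 by 0.98, Atp5b by 0.94 and Uqcrfs1 by 0.91, all short of the threshold. Over all tested genes, the lowest of 4 equal bins of transcript length had a median difference of -0.19, and the other bins had medians between -0.05 and -0.03. The part of transcript length in the medians of these lists was not tested.

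**Figure D2:**
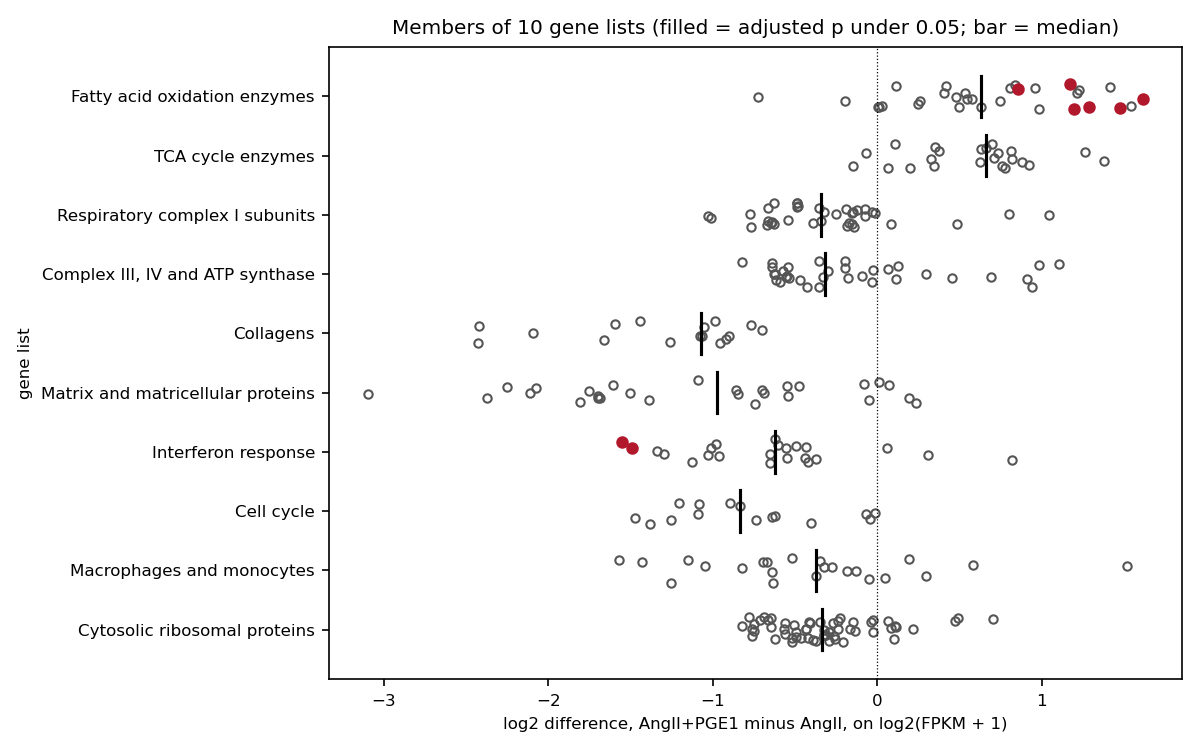
Each point is 1 tested gene of a list, placed by its log2 difference between AngII+PGE1 and AngII hearts, with red points for adjusted p under 0.05 and a bar at the list median. Of the 10 lists plotted, fatty acid oxidation, at 0.63, and the citric acid cycle, at 0.66, have positive medians, and collagens, at -1.07, the lowest.

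Genes outside metabolism that rose included both a peptide hormone precursor and a hormone receptor. Penk, which encodes the precursor of enkephalins, had the largest rise of the 24. It was at 7.84, 6.11 and 5.97 FPKM in AngII+PGE1 libraries, against 1.45, 1.12 and 1.11 FPKM in AngII libraries. AngII+PGE1 1 was the highest of all, and the groups were far apart (log2 difference 1.77, SE 0.23, limma adjusted p = 0.031). Penk was also 1 of the 5 genes past the threshold with the side covariate (difference 2.15, limma adjusted p = 0.00218). Agtr1a, the AT1 receptor gene, was at 22.3, 27.2 and 26.9 FPKM in AngII+PGE1 libraries, against 10.2, 11.4 and 12.9 FPKM in AngII libraries. It rose without overlap (log2 difference 1.08, SE 0.16, limma adjusted p = 0.0395), and saline hearts averaged 19.97 ± 2.88 FPKM (SD, n = 3). Agtr1a was the member past the threshold among 7 tested genes of the renin-angiotensin system (0.403% of all tested genes passed). The median of the 7 was 0.36.

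Herpud1, a membrane protein of the endoplasmic reticulum that takes part in the disposal of misfolded proteins, rose and lay above the saline libraries as well. It was at 132, 159 and 159 FPKM in AngII+PGE1 libraries and at 52.4, 60.5 and 63.8 FPKM in AngII libraries, with 117, 88.8 and 113 FPKM in saline libraries. Its log2 difference from AngII was 1.33 (SE 0.16, limma adjusted p = 0.031), and it passed with the side covariate as well (1.12, limma adjusted p = 0.0392). The human HERPUD1 promoter is known for a stress response element, ERSE-II, which reads ATTGG, any 1 base and CCACG, so the mouse sequence is shown. In the RefSeq table, build GRCm38.p6, the 250 bases before the Herpud1 start are chr8:94386179-94386428 on the plus strand, and the single match to that form, which begins 52 bases before the start, is in capitals.
Herpud1: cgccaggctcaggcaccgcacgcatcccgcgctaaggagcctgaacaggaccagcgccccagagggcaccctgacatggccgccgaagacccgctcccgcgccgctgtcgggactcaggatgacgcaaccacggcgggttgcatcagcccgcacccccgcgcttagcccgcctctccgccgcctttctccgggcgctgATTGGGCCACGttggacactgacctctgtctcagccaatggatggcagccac
The form occurred, on either strand, in 10 of 32851 promoter windows (0.0304%), each made of the 250 bases before a start. Among tested genes with a window it occurred in 7 of 9367 (0.0747%). The longer element ERSE reads CCAAT, any 9 bases and CCACG. It occurred in 0.113% of all windows and in 0.139% of tested genes with a window. In an unfolded protein response list, 8 of the 23 genes that had a window held it. Herpud1 had no full match, but its window ends in CCAAT, 9 bases and CCAC. The base that decides this match lies past the end of the window and was not read. Of the 25 tested genes of that list Herpud1 alone passed the threshold (0.403% of all tested genes did), and the list median was 0.09. Dnajb9, a chaperone of the same compartment, was at 19.9, 30.2 and 27.5 FPKM with AngII+PGE1, against 5.45, 8.71 and 6.00 FPKM with AngII (log2 difference 1.80, limma adjusted p = 0.0566). Ddit3, a transcription factor of prolonged stress, differed by -0.89 (limma adjusted p = 0.0883). Spcs1, a subunit of the signal peptidase, and Entpd5, a nucleotidase of the same compartment, rose by 1.21 and 1.06.

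Other genes that rose had varied roles. Oaz1, the antizyme that restrains ornithine decarboxylase, was at 276, 431 and 410 FPKM in AngII+PGE1 libraries, against 124, 151 and 102 FPKM in AngII libraries (log2 difference 1.55, SE 0.27, limma adjusted p = 0.0466). Odc1, ornithine decarboxylase itself, differed by 0.97 without passing (limma adjusted p = 0.0627). Aqp1, the water channel of small vessels, was at 138, 166 and 156 FPKM in AngII+PGE1 libraries, against 77.9, 53.2 and 44.3 FPKM in AngII libraries (log2 difference 1.41, SE 0.23, limma adjusted p = 0.0435). Gsn, the actin-severing protein gelsolin, averaged 535 ± 47.2 FPKM in AngII+PGE1 hearts and 239 ± 48.9 FPKM in AngII hearts (SD, n = 3 each), a rise of 1.18. Cbx7, a Polycomb subunit, rose by 1.30, and the sugar enzyme Sord by 1.15. Rdm1 rose by 0.95 and Fam174b by 1.04.

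Of the 24 genes that rose, 6 lay above all saline libraries in every AngII+PGE1 library. They were Herpud1, Mid1ip1, Cirbp, Cabcoco1, Gnmt and H2-Q6. Mid1ip1, a regulator of fatty acid synthesis, was at 80.2, 89.8 and 86.0 FPKM in AngII+PGE1 libraries, against 39.1, 51.7 and 46.7 FPKM in AngII libraries, and averaged 51.4 ± 3.03 FPKM in saline hearts (SD, n = 3). Cirbp, a cold-inducible RNA-binding protein, was at 40.6, 37.2 and 42.0 FPKM in AngII+PGE1 libraries, against 17.6, 20.7 and 20.9 FPKM in AngII libraries, and averaged 29.1 ± 4.25 FPKM in saline hearts (SD, n = 3). For both genes the AngII+PGE1 libraries formed a tight group above all others. None of these 6 passed in the comparison of AngII+PGE1 with saline hearts, in which 2 of 11902 genes passed by limma (0.0168%), both lower. Gnmt, a glycine methyltransferase, rose by 1.10 relative to AngII hearts, Cabcoco1 by 1.02, Cirbp by 0.98 and Mid1ip1 by 0.89. H2-Q6, at a difference of 1.23, belongs to a family of near-identical genes, and how its reads were shared out is not known here.

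**Figure D3:**
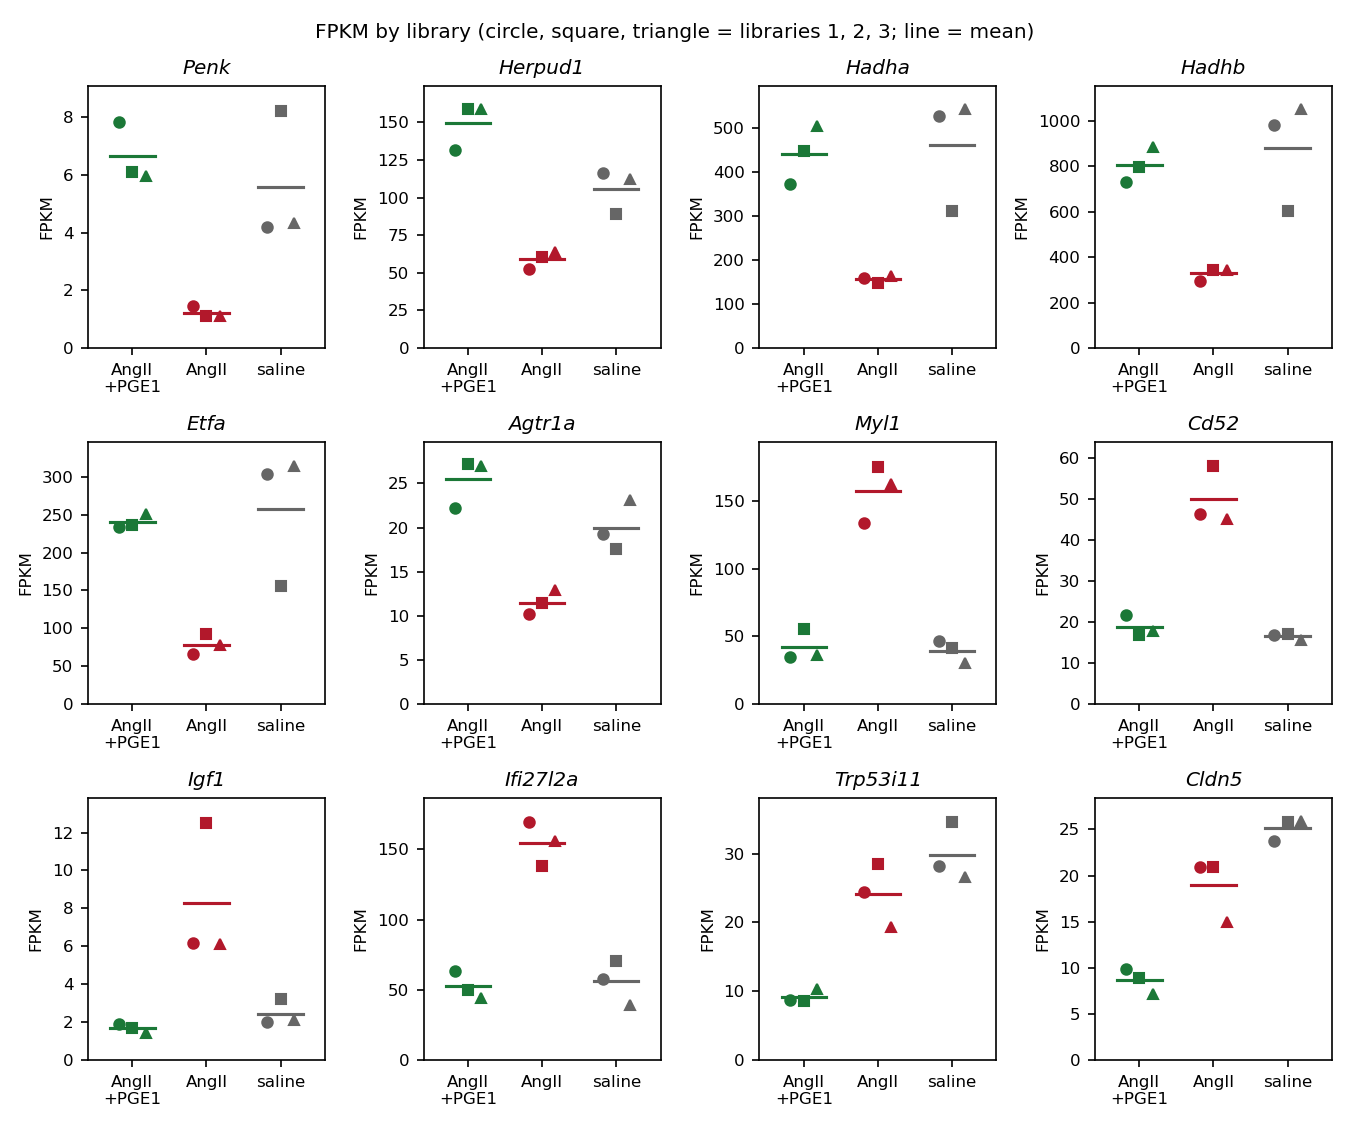
FPKM of 12 genes in each library, with AngII+PGE1, AngII and saline from left to right, a marker shape per library and a line at each group mean. Penk was at 5.97 FPKM or more in AngII+PGE1 libraries and at 1.45 or less in AngII libraries, whereas Trp53i11 and Cldn5 were lower with AngII+PGE1 than in both other groups.

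A muscle light chain and several cytoskeletal genes fell. Myl1, the essential light chain of fast skeletal and embryonic muscle, was at 34.9, 55.2 and 35.9 FPKM in AngII+PGE1 libraries, against 134, 176 and 163 FPKM in AngII libraries. AngII+PGE1 2 was the highest of its group and still far under the lowest AngII library (log2 difference -1.91, SE 0.23, limma adjusted p = 0.031). Of 10 skeletal muscle markers 5 were under 1 FPKM in each of the 6 libraries, the fast myosin genes Myh1, Myh2 and Myh4 among them at 0.08 FPKM or less. The 4 that were tested did not pass, with Tnni2 at -0.46 and Mylpf at 0.09. The 10 summed to 1807 to 4714 FPKM in AngII+PGE1 libraries and to 3348 to 3892 FPKM in AngII libraries. They include Acta1 and Ckm, so the sum does not follow the fast skeletal genes alone. The part of skeletal muscle content in the lower Myl1 was not tested. Myl1 passed with the side covariate too (-1.98, limma adjusted p = 0.0462). Tmsb10, a thymosin that binds actin monomers, was at 185, 117 and 116 FPKM in AngII+PGE1 libraries, against 494, 648 and 334 FPKM in AngII libraries (log2 difference -1.80, SE 0.30, limma adjusted p = 0.0449). Of 20 thymosin and cytoskeleton genes Tmsb10 and Dynll1 fell (0.202% of all tested genes did), none rose, and the median was -0.62. For 10 of the 20 all AngII+PGE1 libraries lay below all AngII libraries (19.7% of all tested genes), and for none above (16.3%). This list, like the others, was chosen with earlier results of these data known. The microtubule protein Map1b fell by 1.40, the dynein light chain Dynll1 by 1.35 and Gmfg, an actin regulator of leukocytes, by 0.97. Vim, the intermediate filament of mesenchymal cells, was at 199, 150 and 146 FPKM with AngII+PGE1, against 398, 677 and 319 FPKM with AngII (log2 difference -1.43, limma adjusted p = 0.0566).

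Of the interferon-response genes 2 fell, and AngII+PGE1 1 lay nearer to the AngII libraries than AngII+PGE1 2 and 3 did. Ifi27l2a was at 63.3, 49.6 and 44.2 FPKM in AngII+PGE1 libraries, against 170, 138 and 156 FPKM in AngII libraries, and fell by 1.55 on the log2 scale (SE 0.22, limma adjusted p = 0.0395). Ifi44 was at 4.03, 1.63 and 1.34 FPKM in AngII+PGE1 libraries, against 9.20, 7.35 and 7.10 FPKM in AngII libraries, and fell by 1.49 (SE 0.26, limma adjusted p = 0.0488). Both genes were highest in AngII+PGE1 1 within their group, and neither overlapped. Of 23 tested genes these 2 fell (0.202% of all tested genes did), none rose, and the median was -0.62. For 8 of the 23 all AngII+PGE1 libraries lay below all AngII libraries (19.7% of all tested genes), and for none above (16.3%). Relative to the AngII mean, the list median was -0.11 in AngII+PGE1 1, -1.06 in AngII+PGE1 2 and -0.89 in AngII+PGE1 3. Without AngII+PGE1 1 the median difference was -0.91 and 15 of the 23 were lower past the threshold, as were 17.7% of all tested genes in that setting. Of 13 class I antigen-presentation genes H2-Q6 passed (0.403% of all tested genes did). The median of the 13 was 0.12, and -0.32 without AngII+PGE1 1, so its sign rested on that library: relative to the AngII mean it was 0.60 in AngII+PGE1 1, -0.41 in AngII+PGE1 2 and -0.21 in AngII+PGE1 3.

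Leukocyte and cytokine genes that fell were few. In bulk tissue, fewer cells of a type and less RNA per cell cannot be told apart. Cd52, a surface glycoprotein of lymphocytes and monocytes, was at 21.7, 16.8 and 17.8 FPKM in AngII+PGE1 libraries, against 46.3, 58.1 and 45.1 FPKM in AngII libraries. It fell without overlap (log2 difference -1.36, SE 0.16, limma adjusted p = 0.031) and passed with the side covariate (-1.24, limma adjusted p = 0.0444). The 7 lymphocyte markers summed to 3.01 to 7.78 FPKM in AngII+PGE1 libraries and to 3.42 to 4.97 FPKM in AngII libraries. The 8 macrophage markers summed to 236 to 357 FPKM in AngII+PGE1 libraries and to 359 to 482 FPKM in AngII libraries, and none of the 8 passed. Of 23 macrophage and monocyte genes none passed, and the median was -0.37. For 9 of the 23 all AngII+PGE1 libraries lay below all AngII libraries (19.7% of all tested genes), and for none above (16.3%). Trem2, a lipid receptor of macrophages, was at 2.19, 2.43 and 2.91 FPKM with AngII+PGE1, against 5.34, 16.6 and 8.98 FPKM with AngII (log2 difference -1.57, limma adjusted p = 0.0557). The part of macrophage content in the lower Cd52 was not tested. Il11, a cytokine made by stromal cells, was at 0.96, 0.44 and 0.11 FPKM in AngII+PGE1 libraries, against 3.53, 2.95 and 5.40 FPKM in AngII libraries, low levels at which the log2(FPKM + 1) scale understates a change (difference -1.73, SE 0.30, limma adjusted p = 0.0488). Being under 1 FPKM in every AngII+PGE1 library, Il11 entered the test only through the other groups, which favours a negative difference.

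Ccl21b, a chemokine gene of lymphatic vessels and lymphoid stroma, was listed at 0 FPKM in each AngII+PGE1 library and at 52.9, 52.0 and 41.7 FPKM in AngII libraries. It is 1 of several near-identical copies, so its level is uncertain and no fold is given, although it passed by limma (adjusted p = 0.0399). Like Il11, Ccl21b entered the test only through the other groups, which favours a negative difference. Its close relative Ccl21a was at 57.2, 22.3 and 40.6 FPKM with AngII+PGE1, against 107, 116 and 83.9 FPKM with AngII (log2 difference -1.41, limma adjusted p = 0.059). Another copy, Ccl21c, was at 11.1, 4.56 and 5.15 FPKM with AngII+PGE1, against 1.01, 16.9 and 1.76 FPKM with AngII, with overlap (log2 difference 0.68, limma adjusted p = 0.477). The other 5 lymphatic genes tested did not pass, with differences of 0.58 for Prox1, 0.24 for both Lyve1 and Mmrn1, -0.12 for Flt4 and -0.31 for Pdpn.

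Igf1, the insulin-like growth factor, fell. It was at 1.92, 1.68 and 1.44 FPKM in AngII+PGE1 libraries and at 6.17, 12.5 and 6.14 FPKM in AngII libraries, with 2.0, 3.22 and 2.12 FPKM in saline libraries. All AngII+PGE1 libraries lay below all others (log2 difference -1.73 against AngII, SE 0.25, limma adjusted p = 0.0395). The binding protein gene Igfbp7 was at 121, 130 and 150 FPKM with AngII+PGE1, against 309, 659 and 253 FPKM with AngII, and missed the threshold (log2 difference -1.48, limma adjusted p = 0.0557). Igfbp3 differed the other way, by 0.58. Igf1 was the single gene past the threshold among 9 of the IGF pathway (0.403% of all tested genes passed). Of the 9, 4 had a positive and 5 a negative difference, with a median of -0.08. Further genes that fell had varied roles. Sox4, a developmental transcription factor, was at 8.06, 6.99 and 4.59 FPKM in AngII+PGE1 libraries, against 23.8, 16.9 and 21.98 FPKM in AngII libraries, and fell by 1.55. Gadd45g, a gene of growth arrest and stress, fell by 0.93 and the copper chaperone Atox1 by 1.25. The peptide transporter Slc15a2 fell by 1.53, Angptl7 by 1.39, the calcium-binding protein Cabp1 by 1.39 and the unnamed gene model Gm16867 by 1.75. The myristoyltransferase Nmt2 fell by 1.04, the genome-stability factor Rmi2 by 1.02, the meiotic gene Sycp3 by 0.999 and Syt11 by 0.82.

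Trp53i11 and Cldn5 fell below both AngII and saline levels. Trp53i11, a target of p53, was at 8.72, 8.54 and 10.4 FPKM in AngII+PGE1 libraries and at 24.5, 28.5 and 19.4 FPKM in AngII libraries, with 28.2, 34.6 and 26.6 FPKM in saline libraries. It fell by 1.29 relative to AngII (SE 0.18, limma adjusted p = 0.0388) and by 1.59 relative to saline (SE 0.18, limma adjusted p = 0.046). Cldn5, the tight-junction protein of endothelium, was at 9.89, 8.89 and 7.16 FPKM in AngII+PGE1 libraries and at 20.9, 21.0 and 15.0 FPKM in AngII libraries, with 23.8, 25.8 and 25.9 FPKM in saline libraries. It fell by 1.04 relative to AngII (SE 0.17, limma adjusted p = 0.0449) and by 1.45 relative to saline (SE 0.17, limma adjusted p = 0.046). These were the only genes past the threshold between AngII+PGE1 and saline hearts. Both comparisons use the same AngII+PGE1 libraries. Of 19 endothelial genes Cldn5 fell and Aqp1 rose (0.202% of all tested genes each way), and the median was -0.16. The 7 endothelial markers summed to 212 to 291 FPKM in AngII+PGE1 libraries, 181 to 304 FPKM in AngII libraries and 356 to 399 FPKM in saline libraries. The sums overlapped between AngII+PGE1 and AngII hearts but not between AngII+PGE1 and saline hearts, and the part of endothelial content in the lower Cldn5 was not tested. Igf1, Cabp1, Rmi2 and Syt11 were the other genes that fell with every AngII+PGE1 library below every saline library.

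Fibrillar collagen genes had large differences but none passed. Of 16 tested collagens all had a negative difference, as did 56.8% of all tested genes, 13 lay below all AngII libraries (19.7% of all tested genes did), and the median was -1.07. Col1a1 was at 14.6, 33.7 and 31.5 FPKM with AngII+PGE1, against 56.4, 376 and 125 FPKM with AngII. The AngII libraries spread widely, with AngII 2 the highest, and the difference of -2.42 missed the threshold (SE 0.57, limma adjusted p = 0.059). Sparc, a collagen-binding matrix protein, was at 122, 191 and 187 FPKM with AngII+PGE1, against 446, 900 and 378 FPKM with AngII (log2 difference -1.70, SE 0.31, limma adjusted p = 0.0525). With the 6 libraries alone 2 of 16 collagens and 4 of 28 other matrix genes passed, all lower (3.35% of all tested genes did so in that setting), among them Col3a1, Sparc, Mfap4 and Eln. Without AngII 2 the list medians were -0.73 for collagens and -0.49 for the other matrix genes. The 8 fibroblast markers summed to 916 to 945 FPKM in AngII+PGE1 libraries and to 780 to 1476 FPKM in AngII libraries, with Gsn among them. Of 14 tested fibroblast identity genes Gsn rose (0.202% of all tested genes did), none fell, and the median was -0.40. For 5 of the 14 all AngII+PGE1 libraries lay below all AngII libraries (19.7% of all tested genes), and for 1 above (16.3%). Thy1, a surface protein of fibroblasts, differed by -1.09 and Meox1, a transcription factor of activated fibroblasts, by -1.59 (limma adjusted p = 0.0557 and 0.059). Other members differed little, with Pdgfra at 0.03, Tbx20 at -0.08 and Tcf21 at -0.19.

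The EP receptor genes and the prostacyclin receptor gene were expressed at low levels, and none passed. Ptger3, the EP3 receptor gene, was at 0, 0.04 and 0.05 FPKM in AngII+PGE1 libraries and at 0.06, 0.11 and 0.08 FPKM in AngII libraries. Ptger2 was at 0.12 FPKM or less in every library, so neither gene reached the minimum for a test. Ptger1 was at 0.71, 0.32 and 0.33 FPKM with AngII+PGE1, against 0.88, 1.10 and 0.89 FPKM with AngII, and was not tested either. Ptger4, the EP4 receptor, differed by -0.15 (limma adjusted p = 0.592) and Ptgir, the prostacyclin receptor, by 0.05 (limma adjusted p = 0.866), both at 2.40 FPKM or less in these 6 libraries. None of 13 tested genes of prostanoid reception and synthesis passed. The phospholipase Pla2g5 came nearest, at 19.5, 18.4 and 15.1 FPKM with AngII+PGE1, against 7.10, 7.68 and 4.84 FPKM with AngII (log2 difference 1.32, SE 0.24, limma adjusted p = 0.0515). Ptges2, a prostaglandin E synthase, differed by 1.05 and the thromboxane receptor Tbxa2r by -0.71.

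Ntn1, the netrin-1 gene, was at 10.9, 28.3 and 18.4 FPKM with AngII+PGE1, against 4.32, 6.06 and 4.71 FPKM with AngII. Every AngII+PGE1 library lay above every AngII library, but the AngII+PGE1 libraries spread widely, and the difference of 1.66 missed the threshold in the model of all 9 libraries (SE 0.37, limma adjusted p = 0.0566). It passed with the 6 libraries alone (limma adjusted p = 0.0406) and without AngII+PGE1 1 (difference 1.99, limma adjusted p = 0.0164), and was 0.94 with the side covariate (limma adjusted p = 0.12). Saline libraries were at 24.9, 9.39 and 18.95 FPKM, with saline 2 the lowest. Neo1, the netrin receptor neogenin, was at 7.11, 11.4 and 12.1 FPKM with AngII+PGE1, against 4.11, 4.68 and 4.21 FPKM with AngII (log2 difference 1.04, SE 0.35, limma adjusted p = 0.0929). Ntn4 was at 0.77, 4.89 and 3.76 FPKM with AngII+PGE1, against 0.36, 0.56 and 0.44 FPKM with AngII, so AngII+PGE1 1 lay close to the AngII level (log2 difference 1.34, SE 0.56, limma adjusted p = 0.129). The receptor Unc5b differed by 0.10, and Dcc was at 0.02 FPKM or less in these 6 libraries.

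**Figure D4:**
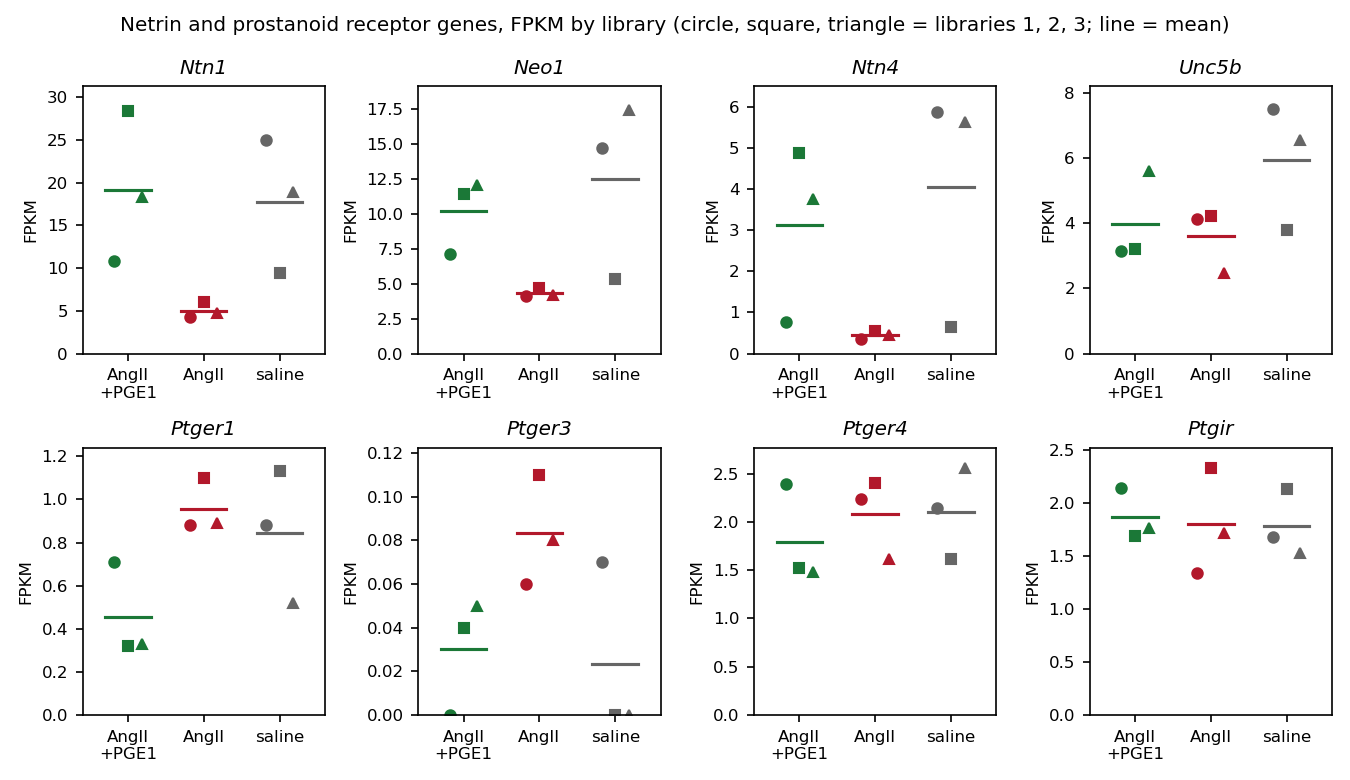
FPKM of netrin genes, their receptors and prostanoid receptors in each library, with AngII+PGE1, AngII and saline from left to right and a line at each group mean. Ntn1 was at 10.9 FPKM or more with AngII+PGE1 and at 6.06 or less with AngII, and Ptger3 was at 0.11 FPKM or less throughout.

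Genes of the hypertrophic programme varied widely between the AngII+PGE1 libraries, and Nppa and Myh7 between the AngII libraries as well. Nppa, which encodes atrial natriuretic peptide, stood at 209, 4177 and 399 FPKM with AngII+PGE1, against 1391, 10009 and 10903 FPKM with AngII (log2 difference -2.92, SE 1.16, limma adjusted p = 0.119). Myh7, a myosin heavy chain of the fetal ventricle, stood at 174, 1451 and 372 FPKM with AngII+PGE1, against 99.3, 688 and 1690 FPKM with AngII (log2 difference -0.10, SE 1.03, limma adjusted p = 0.953). Acta1, skeletal actin, was at 121, 2758 and 1473 FPKM with AngII+PGE1, against 1321, 2644 and 2268 FPKM with AngII. AngII+PGE1 2 was the highest AngII+PGE1 library for all 3 genes and AngII+PGE1 1 the lowest, and the groups overlapped for each. Nppa made up nearly all of the atrial marker sum of 250 to 4218 FPKM with AngII+PGE1 and 1425 to 10936 FPKM with AngII, while the atrial light chain Myl7 was at 2.88 FPKM or less in each of the 6 libraries. Of 23 tested fetal and hypertrophy genes Myl1 fell (0.202% of all tested genes did) and none rose, and the median was -0.78. Without AngII+PGE1 1 the median was -0.31. In that setting 3 of the 23 passed as higher and 4 as lower, against 9.21% and 17.7% of all tested genes. Ankrd1, a stress-responsive ankyrin repeat gene, was at 636, 1427 and 704 FPKM with AngII+PGE1, against 1162, 2968 and 2663 FPKM with AngII (log2 difference -1.28, limma adjusted p = 0.0783). For 6 of the 23 all AngII+PGE1 libraries lay below all AngII libraries (19.7% of all tested genes), and for 1 above (16.3%). Actn1 and Myl4 were among the 6, with differences of -1.03 and -0.93. Of 17 calcium-handling genes Cabp1 fell (0.202% of all tested genes did) and none rose. Their median was 0.39, or -0.06 with the side covariate. Atp2a2, which pumps calcium into the sarcoplasmic reticulum, was at 1322, 2000 and 2734 FPKM with AngII+PGE1, against 581, 649 and 547 FPKM with AngII (log2 difference 1.71, SE 0.44, limma adjusted p = 0.0615). Trdn, the junctional protein triadin, was at 119, 44.8 and 23.7 FPKM with AngII+PGE1, against 213, 129 and 166 FPKM with AngII (log2 difference -1.70, limma adjusted p = 0.0995). None of 21 potassium, sodium and pacemaker channel genes passed, and the median was 0.49. For 8 of the 21 all AngII+PGE1 libraries lay above all AngII libraries (16.3% of all tested genes), and for none below (19.7%). Kcnj5, a subunit of the acetylcholine-activated potassium channel, was at 8.82, 16.6 and 18.1 FPKM with AngII+PGE1, against 3.29, 4.26 and 4.49 FPKM with AngII (log2 difference 1.58, limma adjusted p = 0.06).

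The place of AngII+PGE1 1 differed by gene group. For collagens its list median, -1.62, was farther from the AngII mean than those of AngII+PGE1 2 and 3, at -0.92 and -0.79. For CLK kinases and SR splicing factors it lay on the other side, at 0.17 against -0.72 and -0.86 in AngII+PGE1 2 and 3, and for cytosolic ribosomal proteins it was at -0.05 against -0.48 and -0.60 in the same 2 libraries. Of the genes that passed with the 6 libraries alone but not with all 9, those of largest difference are given with the place of AngII+PGE1 1. Gna12, the alpha subunit of a heterotrimeric G protein, was at 10.5, 48.8 and 61.0 FPKM with AngII+PGE1, against 3.31, 7.54 and 3.24 FPKM with AngII, the largest difference among those higher (2.61, limma adjusted p = 0.0455 with the 6 libraries). The others of that set were Hist1h1c (2.29), Anxa11 (2.05), Arl1 (2.03), Tm2d1 (1.85), Irx1 (1.80), Mylk4 (1.72), Polr2m (1.68) and Acad11 (1.62), with Dnajb9, Atp2a2 and Ntn1 as given. AngII+PGE1 1 was the lowest library of its group for all 12. The 12 genes of largest negative difference in that set included the histone gene Hist1h2ap (-2.94), the matrix gene Aspn (-2.47), Gapdh-ps15 (-2.02), Ifi203 (-1.80), Smc4 (-1.80), Nupr1 (-1.79), Nsrp1 (-1.73) and Mndal (-1.70), for which AngII+PGE1 1 was the highest library of its group, and Col3a1, Mfap4, Uchl1 and Sparc, for which it was the lowest. Hist1h2ap and Gapdh-ps15 have near-identical copies, and their values are uncertain.

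**Figure D5:**
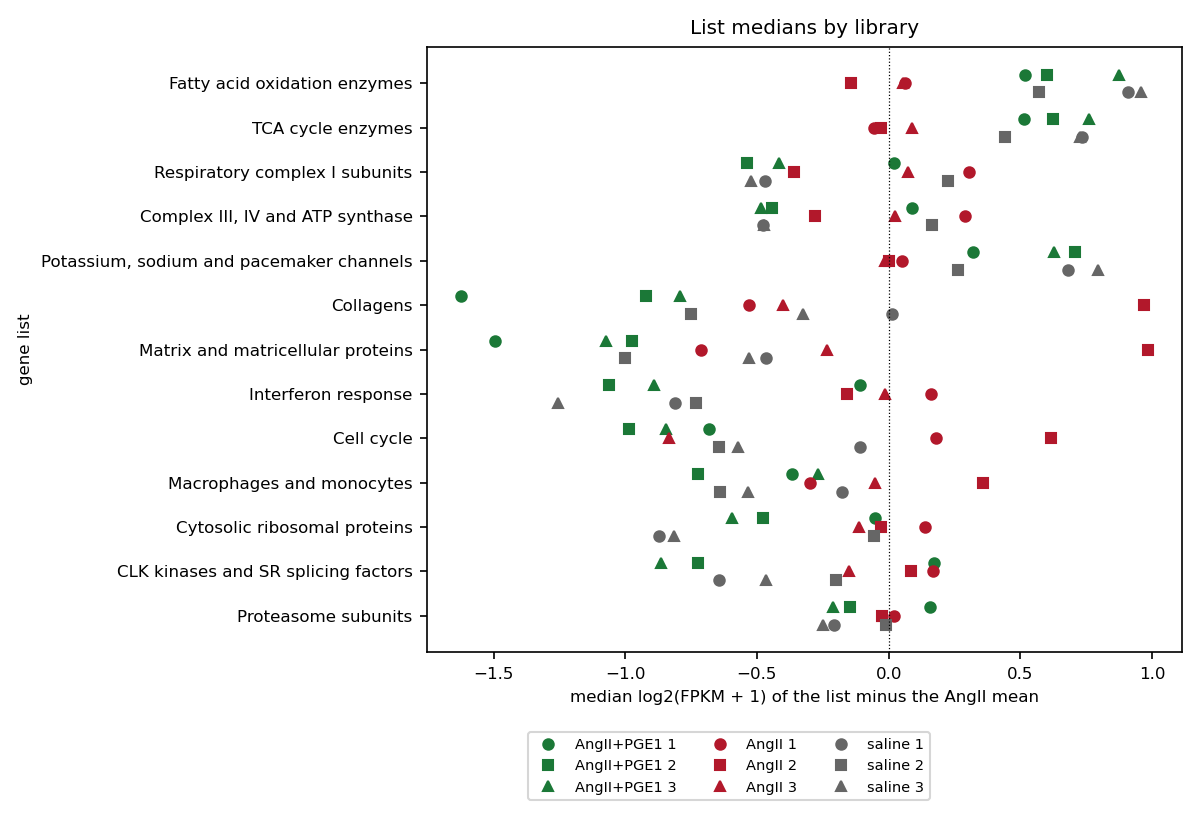
For 13 gene lists, each marker gives the list median in 1 library on the log2(FPKM + 1) scale relative to the mean of the AngII libraries. The AngII+PGE1 libraries lay together for fatty acid oxidation, at 0.52 to 0.88, and apart for interferon response, at -1.06 to -0.11.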

How the data were processed

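The authors deposited 1 table of FPKM, normalized by them for transcript length and library total. The header names no unit, so this was read from the values: the highest column sum was 1.26 times the lowest, and 1.09 times once weighted by transcript length. The deposited log2 ratios between groups were not used. The submitters' processing notes name RSEM 1.2.12, Bowtie2 2.2.5, HISAT2 2.0.4 and the build mm9, without saying what each did. For annotation and strand the sources give nothing. FPKM is relative to all reads on genes, so a few abundant transcripts lower the rest. Per the labels, reads were single-end, of 50 bases. The table holds no counts and depth was not estimated here.

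Column names show the group but not the sample, so libraries carry the numbers 1 to 3 as the columns stand, which pairs none of them. Of the gene symbols, 11 stored as dates were restored by gene identifier. A RefSeq table held 99.4% of the identifiers.

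Values were analysed as log2(FPKM + 1), and every log2 difference is on that scale, which understates changes of low genes. A gene needed 1 FPKM in at least 3 libraries to be tested. Tested genes entered 1 limma model (limma 3.58.1, R 4.3.3) of all 9 libraries, with a mean per group, a variance trend and 6 residual degrees of freedom. P-values were adjusted by Benjamini-Hochberg over all 11902 genes, with a threshold of 0.05. The model was also run on simulated data with independent noise per gene and no library-wide differences. That run cannot speak to the dependence of the results on single libraries. The design named edgeR for a count table, which did not apply. Genes are named if past the threshold, if among the 4 of smallest p of 1 of 49 gene lists, if tied to the series title or hypertrophy, or if among the 12 of largest difference per direction that passed with the 6 libraries alone, at 5 FPKM or more and without overlap. The members and lists were chosen with earlier results of these data known. Alternatives were the 6 libraries alone, each library left out, a minimum of 5 FPKM or none, quantile and median-ratio scaling, robust limma, a lower pseudocount (0.1) and a covariate for a library's side of the first component. Leaving out AngII+PGE1 1 and saline 2 together was added after the data were seen. Promoter sequences are RefSeq's, build GRCm38.p6, and no coordinates come from the deposited table. Some genes are not reported here.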

Additional observations from a re-analysis of the deposited data

How the results depend on the processing

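The count of 48 genes depended on the processing. It was 46 at a minimum of 5 FPKM (39 of the 48 among them), 46 with robust limma, 42 with a pseudocount of 0.1 and 54 with quantile scaling (35 of the 48). It was 772 with the 6 libraries alone, 245 with median-ratio scaling, 6 without a filter, 5 with the side covariate and 5332 without AngII+PGE1 1 and saline 2. With 1 library left out it lay between 0 and 3201. The 4 settings with 0 calls by limma (without AngII+PGE1 2, AngII+PGE1 3, AngII 2 or saline 1) had 2243, 2165, 3158 and 3679 genes at an unadjusted p under 0.05. Without AngII 1 it was 33, of which 11 were among the 48, and without AngII 3 it was 75, of which 21 were. All 48 passed with the 6 libraries alone, without AngII+PGE1 1, without saline 2 and with median-ratio scaling. Median-ratio scaling gave 137 higher and 108 lower, and the 6 libraries alone 373 higher and 399 lower. The sign of each of the 48 held in every alternative in which the gene was tested. Since the groups did not overlap, leaving out a library could not turn a sign, so this is no sign of stability. With the side covariate the 48 kept a median of 0.837 of their difference, over a range of 0.702 to 1.21. The covariate is built from the expression values, and with it 4 of the 48 passed.

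Among other named genes the sign turned for Myh7 (0.015) and Ptger4 (0.042) with quantile scaling, for Unc5b (-0.26) with the side covariate, and for Acta1 (0.016), Myh7 (0.59) and Ptgir (-0.022) without AngII+PGE1 1 and saline 2. With 1 library left out the log2 difference ranged between -2.24 and 0.016 for Acta1, -1.24 and 0.80 for Myh7, -0.075 and 0.18 for Ptgir, -0.025 and 0.24 for Myh6, and -0.12 and 0.22 for Unc5b. The cause of these changes was not tested. No paired analysis was possible because the columns carry a group and not a sample's replicate number. Depth per library was not estimated, so the limit it sets on low genes such as Ptger3 is not given.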

Other observations

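Gene groups not described so far held few genes past the threshold. Of 20 cell cycle genes 15 were tested and none passed. All 15 had a negative difference, as did 56.8% of all tested genes, and the median was -0.84. Low members such as Ccna2 and Plk1 were under 1 FPKM in every AngII+PGE1 library and entered the test through the other groups, which favours negative differences, so the count says nothing further. Ccna2, a mitotic cyclin gene, was at 0.98, 0.37 and 0.29 FPKM in AngII+PGE1 libraries, against 3.38, 6.5 and 1.28 FPKM in AngII libraries. Among 18 cytosolic heat shock genes none passed and the median was -0.04. Hspb1, a small heat shock protein, was at 338, 367 and 359 FPKM in AngII+PGE1 libraries, against 629, 709 and 599 FPKM in AngII libraries, without overlap but short of the threshold (log2 difference -0.86, SE 0.15, limma adjusted p = 0.0515). Hsp90aa1 differed by -1.65 and the mitochondrial chaperone Hspd1 by 0.80. Among 19 circadian clock genes none passed and the median was -0.01, with Cry2 at a difference of 0.90 (limma adjusted p = 0.0525) and Hlf at 0.92 (limma adjusted p = 0.0557). Among 21 antioxidant genes none passed. The mitochondrial peroxidase Prdx3 differed by 1.08 and the plasma glutathione peroxidase Gpx3 by -1.47, with Gpx3 at 224, 213 and 223 FPKM in AngII+PGE1 libraries, against 294, 933 and 823 FPKM in AngII libraries.

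Of 63 mitochondrial ribosomal protein genes none passed and the median was -0.04, with Mrpl44 at 25.8, 35.1 and 39.0 FPKM in AngII+PGE1 libraries, against 14.9, 14.8 and 12.6 FPKM in AngII libraries (log2 difference 1.17, limma adjusted p = 0.0525). None of 31 proteasome genes passed, and the sign of their median changed with the setting. It was -0.08 in the model of all libraries, -0.23 without AngII+PGE1 1, 0.12 with the side covariate and 0.0054 with median-ratio scaling. Of the 31, 6 passed as lower and 3 as higher without AngII+PGE1 1, against 17.7% and 9.21% of all tested genes.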
